A study of Bos taurus with 81 samples.

Results

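The regions described here are distal stretches of the cattle genome that were open and acetylated in both cell layers of the blastocyst, the inner cell mass (ICM) and the trophectoderm (TE). A stretch was taken from the 29 autosomes if at least 200 bp in a row were covered in all 6 ATAC-seq peak lists of ICM and TE and in all 4 H3K27ac peak lists of ICM and TE. It also had to lie 1 kb or more from any H3K4me3 peak of ICM, TE or the whole blastocyst (BL). The rule gave 3429 stretches, out of 57668 autosomal stretches of 200 bp or more that were open in all 6 ICM and TE lists (5.95%). The stretches were thus chosen by the ATAC-seq and H3K27ac peaks of ICM and TE and the H3K4me3 peaks of ICM, TE and BL, and those values are not findings about them. No list from before the blastocyst was used by the rule, but choosing stretches acetylated in ICM and TE can still bear on the values of earlier stages.

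Cattle oocytes and embryos produced in vitro were assayed by CUT&Tag, where a transposase bound to an antibody tags DNA at a histone mark, and by ATAC-seq, where a free transposase tags open chromatin. The groups were untreated germinal vesicle oocytes (GV), collected before maturation, and embryos with 2 cells (2C) at 32 h after insemination, 4 cells (4C) at 44 h and 8 cells (8C) at 56 h. Further groups were morulae (MO) at 122 h, BL at 172 h, and ICM and TE separated from blastocysts. One group, 8A, held 8-cell embryos of 56 h grown with 50 μg/ml α-amanitin, an inhibitor of RNA polymerase II. ICM was obtained by immunosurgery and TE by cutting under a microscope, so the blastocyst parts were isolated by different means, and each library pooled many oocytes or blastomeres. There were 2 libraries per group for each of the 4 marks, and for ATAC-seq 3 libraries each of BL, ICM and TE. Nothing used here says that the libraries of a group came from separate pools of embryos, so the p-values measure only the spread between libraries.

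Enhancers are stretches of DNA, often far from a gene's start, at which bound factors raise that gene's transcription. Active ones are usually open, flanked or covered by H3K27ac and poor in H3K4me3, which instead marks active promoters. H3K27me3 sits on the same lysine as H3K27ac and is laid down by Polycomb proteins at silent genes, and H3K9me3 is typical of constitutive heterochromatin and silenced repeats. In cattle the main wave of embryonic transcription begins around the 8-cell stage. No activity of these stretches was measured and no gene annotation of the same genome build was used, so they are called here distal shared stretches, by their marks and position alone.

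The distal shared stretches were short and mostly solitary. Their median width was 350 bp (quartiles 250 and 500 bp), the widest covered 2000 bp, and together they covered 1.38 Mb. The median distance to the nearest H3K4me3 peak of ICM, TE or BL was 15.5 kb (quartiles 5 and 48 kb), and 1520 stretches (44.3%) lay 20 kb or more away. At the limits of the rule, 432 stretches were 200 bp wide and 349 otherwise matching ones of 150 bp fell outside, while 26 lay 1000 bp from H3K4me3 and 25 fell outside at 950 bp. The H3K27ac shared by the 4 lists around them had a median length of 550 bp over 3299 such acetylated stretches. By the rule a distal shared stretch lies inside one of these and cannot be longer. Joined at gaps under 5 kb, the 3429 stretches formed 2783 groups, of which 2284 held 1 stretch and the largest held 7.

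They were a minority of the acetylated open chromatin common to both layers. Of 24512 open stretches with H3K27ac in all 4 lists, 20468 overlapped an H3K4me3 peak, 615 lay within 1 kb of one, and the 3429 distal stretches made up 14.0%. Their density was 1.38 per Mb over the autosomes, from 0.827 per Mb on chromosome 28 to 2.15 per Mb on chromosome 10. The densest 50 kb window, chr12:86300001-86350000, held 11 stretches between 86309701 and 86330800 (build ARS-UCD1.2).

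H3K27ac was on few of the distal shared stretches up to 8C and on most of them at MO. A stretch was counted as marked in a library if at least 50% of its length lay under a peak. By that count, 14.6% and 14.9% of the distal shared stretches were marked in the 2 GV libraries. At 2C the shares were 5.83% and 7.06%, and at 4C they were 6.07% and 6.27%. At 8C they were 10.9% and 11.0%, and at MO they were 88.0% and 79.5%. Both MO libraries thus stood far above all 8 earlier ones, which lay between 5.83% and 14.9%, and the difference between 8C and MO was 72.8 percentage points. No stage was sampled between 8C at 56 h and MO at 122 h, so how fast the mark arrived is not known. The BL libraries, at 86.3% and 91.2%, overlapped the MO values.

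The share differed by stage over GV, 2C, 4C, 8C and MO (exact permutation test over all 945 ways to pair the 10 libraries, p = 0.00317, and 0.00476 after Benjamini-Hochberg adjustment over the 15 tests of this report). To allow for lists of different length, each share was also set against that of all 4976073 autosomal windows of 500 bp, marked by the same count. Relative to those windows the stretches were marked 2.56-fold more often at GV, 2.46-fold at 2C, 3.19-fold at 4C, 2.86-fold at 8C and 17.1-fold at MO (means of 2 libraries). On the log2 scale this enrichment rose by 2.58 from 8C to MO, and it too differed by stage (exact permutation test, p = 0.00212, adjusted p = 0.00454). H3K27ac lists of GV to MO covered unequal lengths, and library totals were not used, so depth is unknown and a stretch outside a list is not shown to lack the mark. When the 10 lists were shortened to the same covered length of 43.4 Mb by their highest-scoring peaks, the stretches were marked in 3.94% and 4.43% at 8C and in 41.2% and 36.6% at MO, so the step had the same direction at a lower level.

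**Figure D1:**
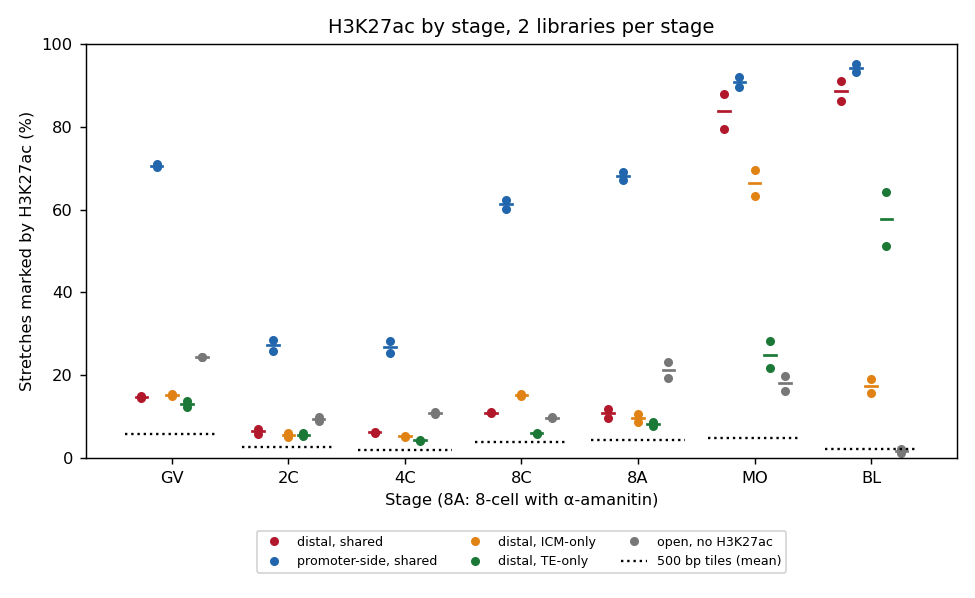
Share of stretches marked by H3K27ac (vertical axis, percent) in each library by stage (horizontal axis), for the distal shared stretches and 4 comparison sets. Points are libraries, short bars are means of 2, and dotted lines are the mean share of 500 bp windows. The distal shared stretches (red) stayed between 5.83% and 14.9% up to 8C and reached 79.5% and 88.0% at MO.

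Counting stretches in place of shares gave the stage at which each first carried the mark in both libraries. At GV, 406 stretches were marked in both libraries (11.8%, against 4.23% of the 500 bp windows). The same count was 108 at 2C (3.15%, windows 1.20%), 113 at 4C (3.30%, windows 0.935%) and 272 at 8C (7.93%, windows 2.53%). At MO it was 2688 (78.4%, windows 3.71%), and at BL it was 2880 (84.0%, windows 1.86%). Only 373 stretches were marked in neither MO library, whereas 2950 were marked in neither 8C library.

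Followed from 2C on, 108 stretches were first marked at 2C, 60 at 4C, 201 at 8C and 2367 at MO, and 693 were marked in both libraries at none of these stages. First marking at MO thus took in 69.0% of the distal shared stretches, against 2.76% of the windows. Of the 201 stretches first marked at 8C, 188 were marked in both MO libraries (93.5%), against 78.4% of all distal shared stretches. The same MO share was 79.6% for those first marked at 2C and 78.3% for those first marked at 4C. Of the 108 first marked at 2C, 31 were marked in both libraries at each of 4C, 8C and MO (28.7%). These shares were not counted over the windows. With lists shortened to equal length, 1020 stretches were first marked at MO and 2195 at none of the stages, so the counts depend on the lengths of the lists. At equal length MO stayed above all earlier stages, but the earlier stages did not keep their order: the shares were 4.49% and 4.32% at GV, 4.43% and 4.05% at 2C and 6.07% and 6.24% at 4C, and those at 8C (3.94% and 4.43%) lay below 4C. The rise from 4C to 8C in the full lists was thus not seen in lists of equal length.

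**Figure D2:**
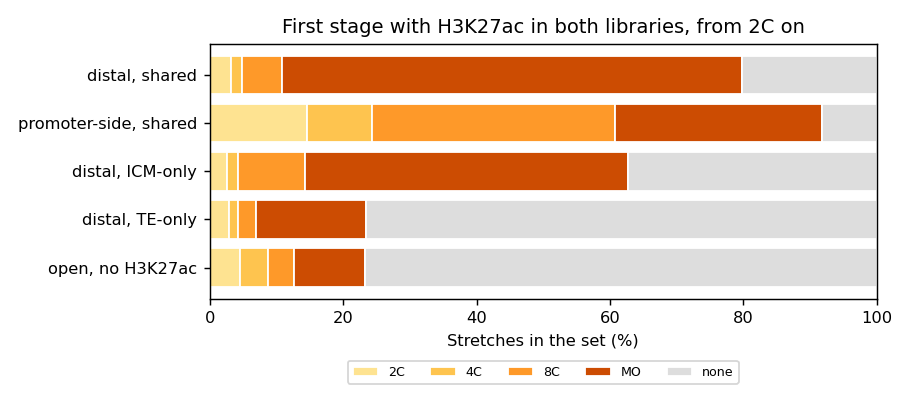
First stage from 2C on at which stretches carried H3K27ac in both libraries, as a percent of each set (horizontal axis), for the distal shared stretches and 4 comparison sets (rows). Colours are stages, and grey marks stretches marked at none of them. MO takes 69.0% of the distal shared stretches and 31.1% of the promoter-side ones.

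Many stretches acetylated in the oocyte lists were outside the 2C lists. Of the 406 stretches marked in both GV libraries, 260 were marked in neither 2C library (64.0%, against 66.8% of the windows marked at GV), and 16 were marked in both libraries at every stage from GV to MO. Of the 406, 230 were marked in both MO libraries but not in both libraries of 2C, 4C or 8C. Those with the mark at GV lay closer to H3K4me3 of the blastocyst (median 9.85 kb) than those first marked at MO (median 17.1 kb, with GV counted). The GV lists covered 126.6 and 141.8 Mb and the 2C lists 55.0 and 67.8 Mb, and in lists of equal length the shares at GV and 2C overlapped and 112 stretches were marked in both GV libraries. A loss from GV to 2C is therefore not shown. In all, 1798 stretches (52.4%) were marked in no library of GV, 2C, 4C or 8C and in both of MO, and 1604 of these were also marked in both BL libraries. Neither this pattern nor that of the 230 stretches was counted over the windows.

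Acetylation at MO was centred on the open stretch. At the centre of the stretch, 87.8% and 79.4% of the distal shared stretches were under an MO peak. The share fell to 37.4% and 35.0% at 1 kb and to 22.6% and 21.5% at 5 kb on average over both sides, and 4.98% and 4.80% of all 500 bp windows were marked in those libraries. At 8C a low peak stood at the same place, with 10.8% and 10.9% at the centre and 4.23% in both libraries at 5 kb. In BL the centre had 85.2% and 90.5%, and the share at 5 kb was 12.6% and 14.2%, below that at MO. The BL lists were shorter, at 49.0 and 55.1 Mb against 115.2 and 112.6 Mb at MO, and marked 2.11% and 2.36% of the windows. Less acetylation around the stretches in BL than at MO is therefore not shown.

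**Figure D3:**
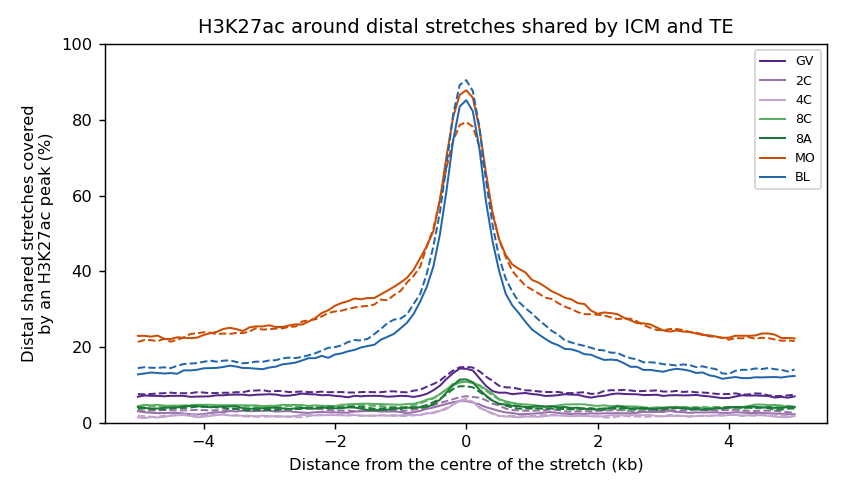
Percent of the 3429 distal shared stretches under an H3K27ac peak (vertical axis) by distance from the centre of the stretch (horizontal axis, kb). Colours are stages, and solid and dashed lines are the 2 libraries. The MO and BL curves rise above 79% at the centre, while the GV to 8C and 8A curves stay below 15% throughout.

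Width and distance to H3K4me3 did not alter the order of 8C and MO. Among 910 stretches of 200 to 250 bp, 83.4% and 73.8% were marked at MO, and among 882 of 500 bp or more, 92.2% and 86.6% were. The same classes had 8.90% and 9.45%, and 12.7% and 12.4%, at 8C. For 1520 stretches 20 kb or more from H3K4me3, the MO libraries gave 89.1% and 80.8%, close to the 89.0% and 79.4% of the 856 stretches at 1 to 5 kb. At GV, by contrast, the far stretches had 11.4% and 12.2% and the near ones 20.1% and 19.7%. By chromosome, the share marked in both MO libraries ran from 65.8% on chromosome 28 to 87.6% on chromosome 1.

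Single stretches show how the values combine. The widest, chr22:43127451-43129450 (2000 bp), had no H3K27ac in any list of GV, 2C, 4C, 8C or 8A and was fully covered in both MO lists. It lay 3.75 kb from H3K4me3. At chr9:95150401-95152250 (1850 bp) H3K27ac was likewise absent from the lists up to 8C and covered 100% and 94.6% at MO, and the stretch lay wholly under H3K9me3 in both lists of GV, 2C, 4C and 8C.

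Other wide stretches were acetylated in the oocyte lists and lay outside the lists of some stages between GV and MO. Those lists were shorter than the GV lists, so an interruption of the mark is not shown. The stretch chr11:89937751-89939400 (1650 bp) was covered for 63.6% and 69.7% at GV, 51.5% and 69.7% at 2C, 0% in both lists of 4C and of 8C, and 100% in both MO lists. The stretch chr4:25071201-25072800 (1600 bp, 45.35 kb from H3K4me3) was covered for 59.4% and 78.1% at GV, 0% at 2C and 4C, 62.5% and 100% at 8C, and 100% in both MO lists. In both 8A libraries it was covered for 0%. Both were chosen for their width, and 272 stretches in all were marked in both 8C libraries.

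Other histories held few stretches. The widest first marked in both libraries at 2C, chr9:80281851-80283300 (1450 bp), was covered for 0% and 72.4% at GV, 55.2% and 51.7% at 2C, 86.2% and 79.3% at 4C, and 69.0% and 75.9% at 8C. In MO it was covered for 100% and 27.6%, so the MO libraries differed there. The widest first marked at 4C, chr15:16445751-16446650 (900 bp), was covered for 55.6% and 50% at 4C, 0% in both 8C lists and 100% in both MO lists. Of the stretches marked in both libraries at no stage up to MO, the widest, chr25:16842251-16843900 (1650 bp) was covered for 72.7% and 30.3% at MO and wholly in both BL lists.

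Promoter-side stretches were marked more often than the distal ones at every stage from GV to MO. Promoter-side stretches were the 14006 stretches open in the same 6 lists, acetylated in the same 4 and overlapping H3K4me3 in all 4 lists of ICM and TE. Of these, 70.9% and 70.2% were marked by H3K27ac at GV, 25.9% and 28.5% at 2C, 28.2% and 25.4% at 4C, 62.2% and 60.2% at 8C and 92.1% and 89.7% at MO. The distal shared stretches were marked less often in all 10 libraries, by 30.9 percentage points on average (exact sign-flip test over libraries, two-sided p = 0.00195, adjusted p = 0.00454, the smallest that 10 libraries allow). With the 5 stage means as units the same test cannot pass, since its smallest p is 0.0625.

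The size of that gap depended on the stage. The distal share was lower by 50.3 ± 1.52 percentage points at 8C and by 7.15 ± 4.31 points at MO (SD, n = 2 libraries each), and the gap differed by stage (exact permutation test, p = 0.00317, adjusted p = 0.00476). From 2C on, 36.4% of the promoter-side stretches were first marked at 8C and 31.1% at MO, whereas 5.86% of the distal ones were first marked at 8C. Promoter-side stretches were wider, with a median of 650 bp. Among distal stretches of 400 bp or more, 1096 (72.4% of those left) were first marked at MO and 103 (6.81%) at 8C.

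Distal stretches acetylated in 1 layer alone gave a second comparison. ICM-only stretches (6473) were covered in all ATAC-seq and H3K27ac lists of ICM and in none of TE, TE-only stretches (3160) the reverse, and both were distal by the same rule. Such a stretch may adjoin a wider peak that the layers share. At 8C the distal shared stretches, at 10.9% and 11.0%, were marked less often than ICM-only ones (14.9% and 15.4%) and more often than TE-only ones (5.85% and 6.01%). At MO they were marked more often than both, since ICM-only stretches reached 69.5% and 63.3% and TE-only ones 28.2% and 21.6%. The difference from ICM-only stretches varied by stage (exact permutation test, p = 0.00317, adjusted p = 0.00476), as did that from TE-only ones (p = 0.00529, adjusted p = 0.00722, same test).

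Averaged over the 10 libraries, the difference from TE-only stretches was 13.6 percentage points, higher in 10 of 10 libraries (exact sign-flip test, p = 0.00195, adjusted p = 0.00454, and p = 0.0625 with stage means as units). From ICM-only stretches it was 2.92 points, higher in 6 of 10 (exact sign-flip test, p = 0.385, adjusted p = 0.444), which did not pass the test. A last set, 9269 distal stretches open in all 6 lists with no H3K27ac of ICM or TE within 1 kb, had more H3K27ac than the distal shared stretches at GV (24.5% and 24.4%) and less at MO (19.9% and 16.2%). Over all 10 libraries that difference was 9.95 points, higher in 4 of 10, and did not pass the test (exact sign-flip test, p = 0.494, adjusted p = 0.529).

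The 8A group asks whether acetylation at the 8-cell stage needs embryonic transcription. In total share, no difference between 8A and 8C was detectable at distal shared stretches with 2 libraries each. In the 8A libraries 11.8% and 9.74% of them were marked, and in the 8C libraries 10.9% and 11.0%, so the 8C values lay between the 8A values. The mean difference was -0.19 percentage points (exact permutation test, two-sided, p = 1), and 2 libraries against 2 cannot give a p below 0.333. Relative to 500 bp windows, the stretches were marked 2.50-fold more often in 8A and 2.86-fold in 8C (means of 2 libraries), and both 8A libraries lay below both 8C libraries by that measure (difference -0.20 on the log2 scale, exact permutation test, p = 0.333). In the same libraries promoter-side stretches were marked in 69.2% and 67.2% at 8A and 62.2% and 60.2% at 8C. Mean shares at 8A and 8C were 9.63% and 15.2% for ICM-only stretches and 8.13% and 5.93% for TE-only ones. For the open set without H3K27ac they were 21.2% and 9.69%. The 8A lists were longer, at 100.7 and 97.7 Mb against 90.5 and 89.7 Mb at 8C. At distal shared stretches, 247 were marked in both 8A libraries (7.20%, windows 2.86%).

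The stretches that gained the mark at 8C were seldom marked in 8A. Between 4C and 8C, 164 distal shared stretches gained H3K27ac, being marked in both 8C libraries and in neither 4C library, which is 4.78% of them against 1.62% of the windows. Of these 164, 116 were marked in neither 8A library (70.7%), 26 in 1 of them and 22 in both (13.4%). Among windows that gained the mark by the same rule, 59.9% were marked in neither 8A library. At MO, 155 of the 164 were marked in both libraries (94.5%), against 78.4% of all distal shared stretches. Among the 164, 19 had been marked in both GV libraries, so a gain here is relative to 4C alone. In lists shortened to equal length, 55 stretches gained the mark at 8C and 81.8% of them were marked in neither 8A library. Promoter-side stretches gained the mark at 3634 places, of which 17.6% were marked in neither 8A library and 63.1% in both. The distal sets acetylated in 1 layer were like the distal shared stretches, with 73.2% of ICM-only and 66.7% of TE-only gains in neither 8A library. The distal open set without H3K27ac was not. Of its 238 gains, 45.0% were in neither 8A library and 33.6% in both.

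Because the gained stretches were chosen for being marked at 8C, they would be marked less often in any other library. Picking in 1 8C library and reading in the other allows for that. The first 8C library marked 247 distal shared stretches that neither 4C library marked. Of these, 66.4% were marked in the second 8C library, 23.1% and 17.8% in the 8A libraries, and 96.8% and 93.9% in the MO libraries. Of 237 picked in the second 8C library, 69.2% were marked in the first, and 21.9% and 15.6% in the 8A libraries. Every 8A value was thus below every value of an 8C library not used for picking. For promoter-side stretches the other 8C library gave 82.8% and 87.1% and the 8A libraries 67.5% to 72.4%. In 8A, ICM-only picks were marked in 15.3% to 18.8% and TE-only picks in 18.3% to 22.9%. Whether the distal and promoter-side drops differ was not tested, since 2 libraries against 2 cannot pass a test.

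**Figure D4:**
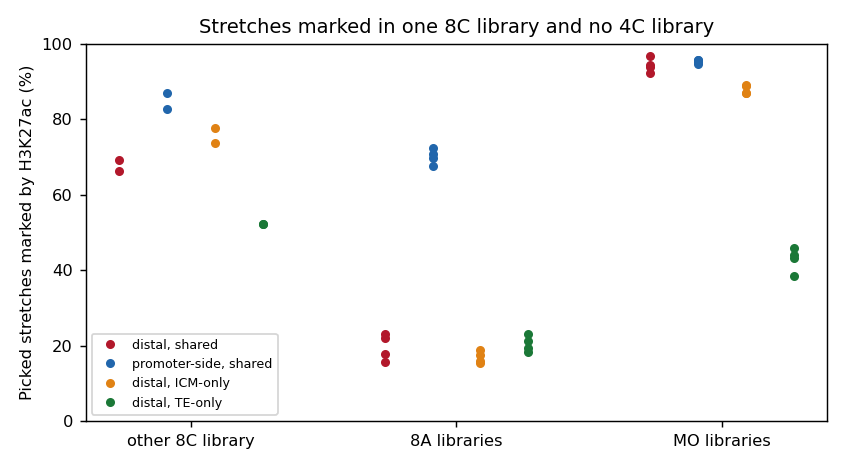
Percent of stretches marked by H3K27ac (vertical axis) in the 8C library not used for picking, the 8A libraries and the MO libraries (horizontal axis), for stretches marked in 1 8C library and no 4C library. Points are library values for both picks, and colours are sets. Distal shared stretches fall from 66.4% and 69.2% in 8C to between 15.6% and 23.1% in 8A, and promoter-side ones stay between 67.5% and 72.4% in 8A.

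The reverse group was smaller. At 47 distal shared stretches (1.37%, against 0.721% of windows) the mark was in both 8A libraries and in no library of 4C or 8C, as it was at 1.31% of ICM-only, 1.65% of TE-only and 6.38% of promoter-side stretches. Of the 47, 32 were marked in both MO libraries. Outside this group, the widest stretch gained at 8C and marked in both 8A libraries was chr6:92243801-92244700 (900 bp). It was covered for 94.4% and 77.8% at 8C and for 55.6% in both 8A lists. The same stretch was covered for 100% in both GV lists, 0% and 72.2% at 2C, and 0% and 44.4% at 4C. At chr26:15313651-15314950 (1300 bp) coverage was 69.2% and 100% at 8C, 92.3% and 0% at 8A, and 30.8% and 0% at MO, so its libraries disagreed at 2 stages.

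Before acetylation arrived, a minority of the distal shared stretches lay under repressive marks, and most of that signal was gone by MO. H3K27me3 marked 8.31% and 8.69% of them at GV, 10.5% and 11.8% at 2C, 16.4% and 15.6% at 4C and 15.1% and 15.0% at 8C. It marked 2.62% and 2.33% at MO, 1.49% and 1.20% at BL, 1.49% and 1.46% in ICM and 0.904% and 1.11% in TE. Relative to 500 bp windows this was a 2.72-fold excess at 8C and 0.394-fold at MO, a change from above to below the genome at large. The share differed by stage over the 8 untreated groups (exact permutation test over the 2027025 pairings of 16 libraries, p = 1.48e-06, adjusted p = 1.11e-05). Among these groups are ICM and TE, whose H3K27ac the rule required, and BL, which contains both. The choice of stretches can thus bear on the values of these groups, and the step from 8C to MO was not tested alone.

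H3K9me3 was also lower from MO on. Before that its share was highest at GV and lower at 2C, where the share of H3K27me3 was higher than at GV. The H3K9me3 lists were longer at GV (187.5 and 186.0 Mb) than at 2C (126.8 and 126.6 Mb). Relative to 500 bp windows, H3K9me3 was 2.78-fold at GV and 3.18-fold at 2C, so a fall from GV to 2C is not shown. It marked 20.9% of the distal shared stretches in both GV libraries, 16.3% and 16.1% at 2C, 19.0% and 20.1% at 4C, and 18.6% and 19.5% at 8C. At MO the shares were 5.63% and 7.32%, at BL 5.80% and 7.61%, in ICM 4.67% and 7.52% and in TE 1.75% and 1.52%. Both TE libraries lay below both ICM libraries, a contrast of 2 against 2 that cannot pass a test. By stage the share of H3K9me3 differed over the same 8 groups (exact permutation test, p = 6.51e-05, adjusted p = 0.000244), with the same limit from the choice of stretches. Relative to 500 bp windows it was 2.82-fold at 8C and still 1.25-fold at MO, whereas H3K27me3 was below the windows at MO. In 8A the repressive marks stood at 15.7% and 17.1% for H3K27me3 and 19.8% and 20.2% for H3K9me3, in each case above both 8C values. The 8A lists of both marks were also longer than those of 8C. Relative to 500 bp windows, H3K27me3 was 2.75-fold in 8A and 2.72-fold at 8C, and H3K9me3 2.76-fold and 2.82-fold. A rise in 8A is therefore not shown.

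From 8C to MO, H3K27me3 fell at distal shared stretches and not at open stretches without H3K27ac. Those 9269 stretches were marked by H3K27me3 in 8.92% and 9.52% at 8C, 14.6% and 15.7% at MO, 31.3% and 31.7% at BL, and between 25.0% and 30.7% in the ICM and TE libraries. The difference between distal shared stretches and this set varied over the 8 untreated groups (exact permutation test, p = 2.47e-06, adjusted p = 1.23e-05). From 8C to MO it fell by 18.5 percentage points. For H3K9me3 the same difference also varied over those groups (exact permutation test, p = 9.87e-07, adjusted p = 1.11e-05). It fell by 5.95 points from 8C to MO. H3K9me3 was itself lower at MO in the set without H3K27ac, at 11.5% and 11.8% at 8C and 4.29% and 5.83% at MO, so that mark was lower at MO in both sets. ICM-only and TE-only stretches also had less H3K27me3 at MO, with means of 8.54% at 8C and 3.07% at MO, and 10.9% and 6.30%. Both tests against the set without H3K27ac were added after the values were seen. That set was defined by its lack of H3K27ac in ICM and TE, which are among the groups tested. The tests therefore do not test the step from 8C to MO alone.

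**Figure D5:**
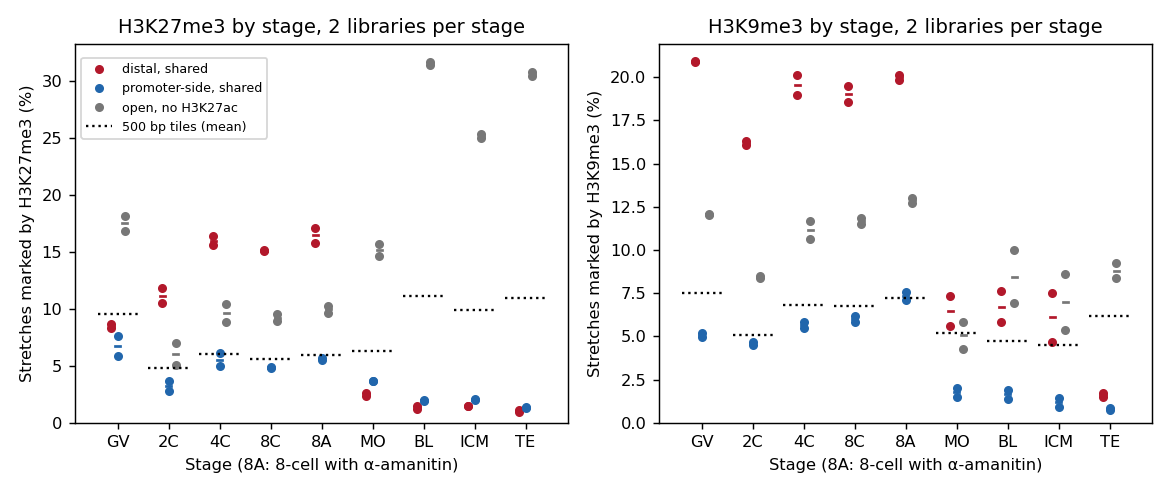
Share of stretches marked by H3K27me3 (left) and H3K9me3 (right) in percent (vertical axes) in each library by stage (horizontal axes). Points are libraries, short bars means of 2, and dotted lines the mean of 500 bp windows. Distal shared stretches (red) lie between 15.0% and 16.4% for H3K27me3 at 4C and 8C and at 2.62% or less from MO on, while open stretches without H3K27ac (grey) rise to over 30% in BL and TE.

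Both repressive marks lay on largely the same stretches at 8C. In both 8C libraries 437 distal shared stretches were marked by H3K27me3 (12.7%, windows 4.31%) and 561 by H3K9me3 (16.4%, windows 5.42%). Both marks were on 418 stretches (12.2%, windows 3.73%), which is 95.7% of those with H3K27me3 and 74.5% of those with H3K9me3. Among windows the same shares were 86.5% and 68.8%. At MO, 67 stretches carried H3K27me3 in both libraries (1.95%, windows 5.27%) and 171 carried H3K9me3 (4.99%, windows 4.00%).

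Most stretches under both marks at 8C had H3K9me3 already in the oocyte, and most carried H3K27ac at MO. Of the 418, 347 already had H3K9me3 in both GV libraries (83.0%, against 69.5% of windows with both marks at 8C), whereas 39 had H3K27me3 there (9.33%, windows 24.2%). Among promoter-side stretches with both marks at 8C, 79.2% had H3K9me3 at GV, and among TE-only ones 81.4%, values close to that of the distal shared stretches. At MO, 28 of them kept H3K9me3 in both libraries and 21 kept H3K27me3. H3K27ac marked 3.35% and 2.87% of the 418 at 8C and 84.0% and 70.3% at MO. The 2849 stretches with neither mark had H3K27ac in 12.2% and 12.7% at 8C and in 88.8% and 81.4% at MO, so both kinds made the step between 8C and MO. By distance to blastocyst H3K4me3, H3K27me3 at 8C was on 20.6% and 21.6% of the stretches at 1 to 5 kb, on 19.8% in both libraries at 5 to 20 kb, and on 8.88% and 8.09% at 20 kb or more. Promoter-side stretches, which overlap H3K4me3, had it on 4.76% and 4.88%.

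A minority of the stretches, all acetylated in ICM and TE by the rule, also carried repressive marks there. In both libraries of a layer, H3K27me3 marked 42 stretches in ICM (1.22%) and 27 in TE (0.787%). H3K9me3 marked 146 in ICM (4.26%) and 37 in TE (1.08%). Relative to 500 bp windows, the means of 2 libraries were 0.149-fold in ICM and 0.0915-fold in TE for H3K27me3, and 1.33-fold and 0.264-fold for H3K9me3. The widest with H3K27me3 in all 4 ICM and TE lists, chr17:70977201-70977800 (600 bp), was wholly covered by H3K27me3 and H3K9me3 in every list from 2C to TE and by H3K27ac in both lists of 4C, 8C, 8A and MO. Both H3K4me3 lists of 2C covered it wholly as well. The widest with H3K9me3 in all 4 lists, chr2:104785801-104786950 (1150 bp), had no H3K9me3 before MO, was wholly covered by it in both lists of MO, BL and ICM, and was covered for 82.6% in both TE lists. H3K27ac covered it wholly from 8C on and 0% in 8A.

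H3K4me3 before the blastocyst, which the rule did not use, was on a minority of these stretches but more often than on the genome at large. It marked 12.7% and 15.0% of the distal shared stretches at GV, 8.02% and 8.14% at 2C, 7.03% and 9.01% at 4C, 3.03% and 6.59% at 8C and 6.91% and 9.45% at MO. Relative to 500 bp windows the mean was 2.03-fold at GV, 1.67-fold at 2C, 1.80-fold at 4C, 1.21-fold at 8C and 4.28-fold at MO. The share differed by stage (exact permutation test, p = 0.0275, adjusted p = 0.0344), a call that was lost without the second GV library (p = 0.0582), the first or second 2C library (p = 0.0550 and 0.0571) or the first 8C library (p = 0.0995, all exact permutation tests). In both MO libraries 178 stretches had H3K4me3 (5.19%, windows 1.66%). All 178 had H3K27ac in both MO libraries, and 52 of them had it in both 8C libraries (29.2%), against 186 of the 3046 stretches with no H3K4me3 at MO (6.11%).

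Whole blastocysts contain the ICM and TE that the rule required to be open, and their ATAC-seq libraries covered nearly all distal shared stretches, as they did all shared open stretches. The 3 BL ATAC-seq libraries covered 96.4%, 95.0% and 99.6% of the distal shared stretches, 3159 stretches were open in all 3 (92.1%), and 5 were open in none. Over all 57668 shared open stretches the same libraries covered 97.2%, 96.9% and 99.7%. ATAC-seq of stages before the blastocyst was not used here, so whether these stretches opened before, with or after their acetylation was not measured.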

How the data were processed

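The data were 81 peak lists, 1 for each library. The submitters' processing notes name BWA 0.7.9a and SAMtools 1.9, cutadapt 1.8.3, Trim Galore 0.4.0, SICER and Picard 2.26.10, and genome build ARS-UCD1.2. The lists are named for another caller, epic2, and for the cutoff, any control and the handling of duplicates nothing was found (not given in the sources used here). A single value per peak in the deposited lists is a score of unstated meaning, used only to shorten lists in alternatives. The lists covered 80.8 to 116.7 Mb of the autosomes for ATAC-seq, 43.4 to 141.8 Mb for H3K27ac, 37.7 to 176.1 Mb for H3K4me3, 110.0 to 281.5 Mb for H3K27me3 and 96.6 to 187.5 Mb for H3K9me3. Library depth is unknown, so no counting error can be given.

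Peak edges lay on a grid of 50 bp or coarser, and coverage was computed on it in Python 3.11.15 (pandas 2.3.3, NumPy 2.4.6). A stretch or 500 bp window was marked when 50% of it was covered. Stages were compared by exact permutation of libraries, set differences by exact sign flips, and p-values were Benjamini-Hochberg adjusted over 15 tests. The procedures were tested on simulated data. The named stretches are the 5 widest, the widest of each history and the densest 50 kb window. The members, sets and lists were chosen with earlier results of these data known. Replicate numbers did not pair the libraries: correlations of deviations between stages ran from -0.026 to 0.035. Sequences and gene annotation of this build were not used here.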

Additional observations from a re-analysis of the deposited data

How the results depend on the processing

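Alternatives changed the definition of marked (any covered base, whole length), the lists (the lowest 25% of peaks by score left out, or lists shortened to equal covered length), the width (400 bp or more), the distance to H3K4me3 (5 kb or more), joined neighbours and left out each library. Over these, 324 values of the main results stayed alike. Tested values among them kept their direction and side of the threshold, and counts among them kept a similar size. The exceptions follow. The H3K4me3 difference by stage had p between 0.0159 and 0.0995 when a library was left out, and missed 0.05 without the second GV, either 2C or the first 8C library. With stage means as units, the differences from promoter-side stretches (-30.9 points) and from TE-only ones (13.6 points) had p = 0.0625, the smallest 32 exact sign flips allow. The 8A minus 8C difference turned to 0.627 points by any covered base and lay between -1.21 and 0.831 when a library was left out, positive without the second 8A library. First marked at MO were 1020 stretches in lists shortened by score, 1096 of 400 bp or more, and 1181 in lists shortened by score per base, an alternative chosen after seeing the data, in which MO shares were 49.5% and 43.0% and 8C shares 5.10% and 4.99%. Marked in both GV libraries were 112 stretches in lists shortened by score, 128 by score per base, 170 of 400 bp or more and 266 at 5 kb or more. Gained at 8C were 55 stretches in shortened lists, 83 of 400 bp or more, and 164 to 247 when a library was left out, the most without the second 8C library. Without 1 of the lists of the rule there were 3537 to 4301 members. With the replicate number as a block, the exact permutation p was 0.0167 for H3K27ac by stage and 0.05 for H3K4me3 by stage, which misses the threshold, and no other call changed; the numbers do not pair the libraries. Unknown depth limits every statement that a stretch was not marked.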

Other observations

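The same rule applied to the X chromosome, which the autosomal set leaves out, gave 54 distal stretches shared by ICM and TE. That is 0.388 per Mb, against 1.38 per Mb on the autosomes. H3K27ac marked 13.0% of them in both GV libraries, 9.26% and 7.41% at 8C and 85.2% in both MO libraries, a step between the same stages as on the autosomes. H3K27me3 marked 24.1% of the X stretches in both 8C libraries, 18.5% and 16.7% at MO and 7.41% in both BL libraries. H3K9me3 marked 33.3% in both 8C libraries and 18.5% and 20.4% in TE. With 54 stretches, each makes up nearly 2% of a share, and no test against the autosomes was made.

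The densest window of distal shared stretches lay on chromosome 12. None of its 11 stretches was marked by H3K27ac in any GV, 2C, 4C, 8C or 8A library, 5 were marked in both MO libraries and 7 in both BL libraries. Of the 2413 windows of 50 kb that held a distal shared stretch, 39 held 5 or more.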
